A study of Mus musculus with 10 samples.

Results

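A group of 40 genes of the cell cycle and DNA replication was followed in the liver of mice that received an adenovirus encoding Phf2 or GFP. The members were listed by name for their known roles, but with earlier results of these data known, so that their counts beside those of all genes are a description. Of the 40 members, 39 were found among the 19938 genes that the arrays named by a single symbol (Ccnb1 is not analysed here). They fall into 19 G1/S genes, which act in the entry into the cycle and the copying of DNA, and 20 G2/M genes, which act from the end of DNA synthesis to the separation of the chromosomes. Livers came from male C57BL/6J mice, 8 weeks old at the time of a tail vein injection and studied in the fed state 3 weeks after it. The labels give 5 mice as injected with Phf2, a histone demethylase, and 5 with GFP, the green fluorescent protein, so that all 10 mice had received a virus, and no uninjected liver is part of the comparison. Which promoter drives the transgene in the adenovirus was not stated in the methods or labels. Each liver was read on 1 Affymetrix Gene ST array, which measures a gene with probes along its exons, and values are on the log2 scale after RMA normalization, where a difference of 1 is a doubling.

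A resting cell enters the cycle when cyclin D and cyclin E kinases free the E2F factors, which turn on the genes for licensing origins, unwinding DNA and making nucleotides. Later in the cycle the complexes of B-MYB and FOXM1 with the MuvB core turn on the mitotic genes, whose promoters often hold a CHR element and CCAAT boxes. Adult hepatocytes are mostly quiescent, can re-enter the cycle after injury, and often become polyploid by copying DNA without dividing.

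All 13 hepatocyte markers that were measured lay above the median level of all genes. So did the 13 pancreatic and the 10 endothelial markers, so that this alone does not single out liver. The median marker stood at percentile 99.9 of all genes for hepatocytes, 87.2 for pancreas and 74.1 for endothelium. The arrays correlated at 0.978 to 0.993 over all features. Phf2 itself read 6.50, 6.54, 6.53, 6.32 and 6.34 in GFP 1 to 5 and 6.31, 6.27, 6.58, 6.45 and 6.37 in Phf2 1 to 5, a log2 fold change of -0.05 (SE 0.08, adjusted p = 0.751 from limma), and whether its feature reads the injected sequence is not known, so that it does not check the group labels. Genes of the exocrine pancreas were highest in GFP 1, Phf2 2 and Phf2 3 (9.72 to 12.07, against 5.69 to 8.38 in the other 7 arrays).

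The promoters of the members are shown first, since the motifs that mark genes of S phase and of mitosis can be read in them. RefSeq gives a promoter, from 250 bases before to 50 bases after the start of the gene in GRCm38.p6, for 33 of the 40 listed members. Where a gene has several starts, only the first by coordinate was used. The promoters of Ccnd1, Ccne2, Mcm4, Ccna2, Aurkb, Foxm1 and Kif20a are not analysed here. Below are the 150 bases before the start of 3 G2/M genes and 4 G1/S genes whose expression the results turn on, on the strand of the gene, with the motifs in capitals. The capitals mark the CHR, spelled TTTGAA or its variant TTCGAA, the CCAAT box, and the E2F motif, each searched on both strands. The E2F motif was counted as TTCCCGC or as TTCGCGC, and also as TTGCCGC or as TTGGCGC. The CCAAT box and the E2F motif of E2f8 overlap and form a single run of capitals.
Cdk1 (chr10:69352913-69353062, minus strand): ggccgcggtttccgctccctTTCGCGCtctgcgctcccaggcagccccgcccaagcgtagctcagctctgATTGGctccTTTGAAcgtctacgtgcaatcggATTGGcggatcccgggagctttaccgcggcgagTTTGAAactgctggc
Top2a (chr11:99024190-99024339, minus strand): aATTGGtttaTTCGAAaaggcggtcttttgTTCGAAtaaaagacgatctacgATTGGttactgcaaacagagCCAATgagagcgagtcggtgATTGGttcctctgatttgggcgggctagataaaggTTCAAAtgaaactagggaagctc
Ttk (chr9:83834539-83834688, plus strand): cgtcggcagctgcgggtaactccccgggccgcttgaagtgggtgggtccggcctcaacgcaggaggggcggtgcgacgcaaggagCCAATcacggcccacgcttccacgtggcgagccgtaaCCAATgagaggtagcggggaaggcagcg
Rrm2 (chr12:24708104-24708253, plus strand): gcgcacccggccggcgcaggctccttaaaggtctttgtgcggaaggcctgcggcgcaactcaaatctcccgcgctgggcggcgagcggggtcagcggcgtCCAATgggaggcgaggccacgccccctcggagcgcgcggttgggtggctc
Rrm1 (chr7:102441545-102441694, plus strand): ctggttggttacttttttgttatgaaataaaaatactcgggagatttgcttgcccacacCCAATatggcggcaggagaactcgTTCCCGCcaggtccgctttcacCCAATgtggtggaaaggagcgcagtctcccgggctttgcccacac
Mcm10 (chr2:5012792-5012941, minus strand): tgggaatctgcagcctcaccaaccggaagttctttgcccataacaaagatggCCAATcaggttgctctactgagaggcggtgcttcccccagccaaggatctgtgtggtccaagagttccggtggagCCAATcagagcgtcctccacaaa
E2f8 (chr7:48881597-48881746, minus strand): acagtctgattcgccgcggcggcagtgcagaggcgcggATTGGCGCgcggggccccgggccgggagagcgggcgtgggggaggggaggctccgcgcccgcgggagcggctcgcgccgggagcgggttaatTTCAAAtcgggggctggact

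A CHR was found in 13 of the 17 G2/M promoters (76.5%) and in 2 of the 16 G1/S promoters (12.5%), while 19.4% of the 27025 promoters in the table hold one. All 13 of these G2/M promoters also hold a CCAAT box, a pairing present in 7.57% of all promoters. The CCAAT box alone was found in 88.2% of the G2/M and 62.5% of the G1/S promoters, against 37.8% of all. In contrast, the E2F motif was found in 9 G1/S promoters (56.2%) and in 3 G2/M promoters (17.6%), against 9.7% of all. Top2a holds 4 CHR and 6 CCAAT boxes in its 300 bases and Mcm6 holds 5 E2F motifs, some of them overlapping. The E-box CACGTG was found in 1 promoter of each class (5.88% of G2/M and 6.25% of G1/S), against 7.09% of all. These matches describe the letters of the window and do not show that a factor binds there.

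**Figure D1:**
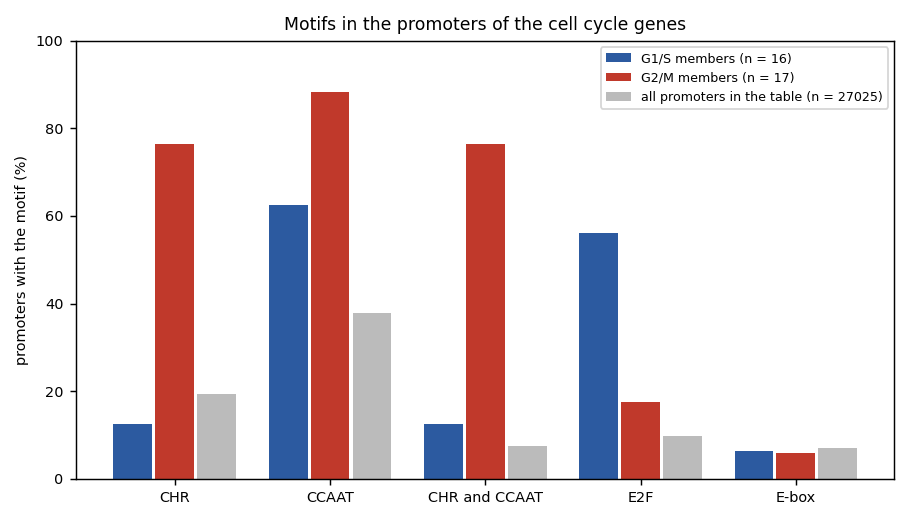
Share of promoters, in percent, that hold each motif at least once on either strand, for 16 G1/S members (blue), 17 G2/M members (red) and all 27025 promoters of the table (grey). The CHR stands at 76.5% in G2/M and 12.5% in G1/S promoters, and the E2F motif at 17.6% and 56.2%.

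Comparing the livers labelled Phf2 with those labelled GFP, 13 of the 39 members were higher in Phf2 mice at an adjusted p under 0.05 (limma, Benjamini-Hochberg over all genes), 2 were lower, and the other 24 were not called. Among all genes, 5.43% were called higher and 4.24% lower. Of the 19 G1/S genes, 6 were higher (Ccnd1, Rrm1, Rrm2, Mcm3, Mcm6 and Pcna), 2 were lower (E2f8 and Mcm10) and 11 did not pass. Of the 20 G2/M genes, 7 were higher (Top2a, Prc1, Cdk1, Birc5, Ccna2, Nusap1 and Ttk), 0 were lower and 13 did not pass. The log2 fold changes of the G1/S genes ran from -0.93 to 1.43 with a median of 0.14, and 15 of 19 were positive. Those of the G2/M genes ran from 0.18 to 1.31 with a median of 0.53, and all 20 were positive, and the unadjusted p lay under 0.05 for 19 of them (11.8% of all genes were higher at this level). The median of all genes was -0.01. The difference between the medians of both classes was not tested, since the members share the same 10 arrays. At the thresholds of the study, a change of 1.5-fold and an unadjusted p under 0.05, 4 G1/S and 9 G2/M genes were higher and 2 G1/S genes were lower, against 2.38% and 1.16% of all genes. The p-values here came from limma, whereas the study used an analysis of variance with Tukey's tests, so that its own counts can differ. In bulk liver, fewer or more cells in cycle and less or more RNA of a gene per cell cannot be told apart.

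**Figure D2:**
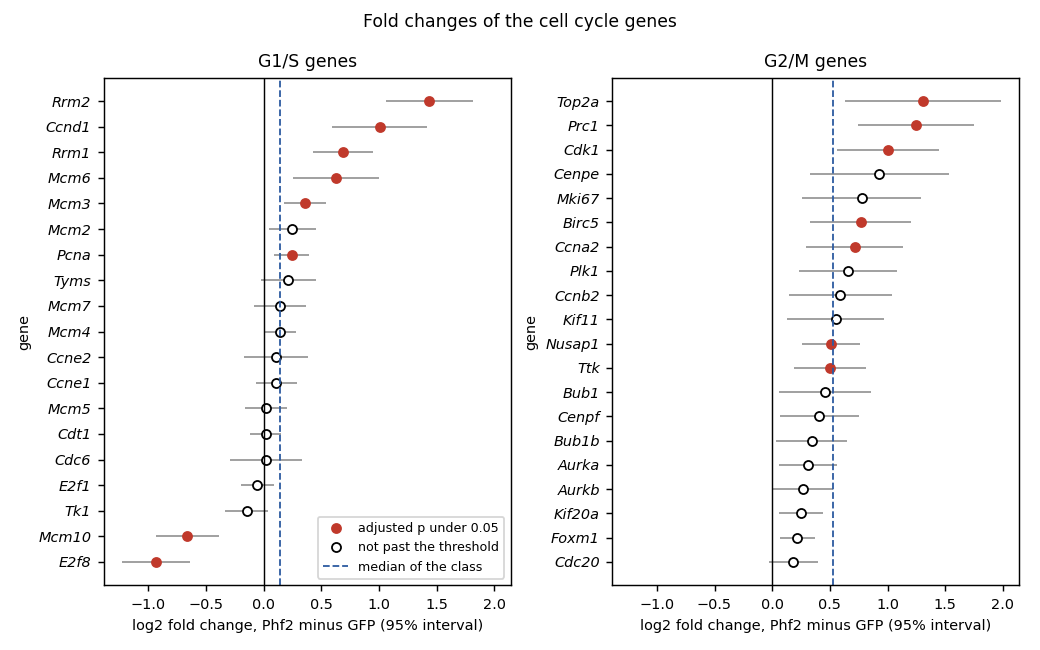
Log2 fold change (Phf2 minus GFP, 5 against 5 mice) with its 95% interval for the 19 G1/S genes (left) and the 20 G2/M genes (right), with filled points for an adjusted p under 0.05 and a dashed line at the median of the class. G1/S genes lie on both sides of 0 (median 0.14), and all 20 G2/M genes lie to its right (median 0.53).

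The 13 higher members were not equally firm. Leaving out 1 array in turn gave between 6 higher members (without Phf2 2) and 22 (without Phf2 5, of which 16 were G2/M genes and 13 were also called with all arrays). The count was 8 without GFP 1, 7 without GFP 2, 9 without GFP 3, 8 without GFP 4 and 11 without GFP 5. It was 16 without Phf2 1, 8 without Phf2 3 and 7 without Phf2 4. The number of all genes called higher moved too. It was 1083 with all arrays and 795 without Phf2 2, and ran from 727 (without Phf2 4) to 1220 (without Phf2 5). Ccnd1, Rrm1, Rrm2, Cdk1, Nusap1 and Prc1, as well as the lower E2f8 and Mcm10, kept their call in each of these 10 fits. Top2a lost it without GFP 2 or Phf2 2 (adjusted p 0.0518 and 0.0537). Mcm3 lost it without GFP 1, Phf2 2 or Phf2 4 (0.0503 to 0.0529), and Birc5 without GFP 2, 3 or 4 or Phf2 2, 3 or 4 (0.0592 to 0.0837). Mcm6 lost it without any single array other than GFP 5 and Phf2 5 (0.0589 to 0.0956), and Pcna without any other than GFP 3 and Phf2 5 (0.0512 to 0.12). Ccna2 and Ttk lost it without any single array other than Phf2 1 and Phf2 5 (0.058 to 0.0956 and 0.0588 to 0.115).

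Of 5 cyclins and E2F factors of the entry into S phase, 1 was higher, 1 lower and 3 were not called. Ccnd1, the cyclin D1 that couples growth signals to the cycle, read 7.05, 7.02, 6.79, 6.80 and 7.39 in GFP 1 to 5 and 7.66, 8.17, 8.20, 8.57 and 7.46 in Phf2 1 to 5. Every Phf2 array lay above every GFP array, with Phf2 4 the highest and Phf2 5 the closest to the controls. The log2 fold change was 1.00 (SE 0.19, adjusted p = 0.00528). The cyclin E genes Ccne1 and Ccne2, which act later in G1, had log2 fold changes of 0.11 each (adjusted p = 0.517 and 0.693, 95% intervals -0.07 to 0.29 and -0.17 to 0.38), and their groups overlapped. E2f1, the founding activator of the E2F family, had -0.06 (interval -0.20 to 0.09) with both groups between 4.70 and 5.01.

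E2f8, an atypical E2F that represses E2F targets and favours polyploidy in hepatocytes, fell. It read 7.08, 7.26, 7.15, 7.47 and 7.13 in GFP 1 to 5 and 5.82, 6.30, 6.62, 6.52 and 6.19 in Phf2 1 to 5. The highest Phf2 array stayed under the lowest GFP array, and Phf2 1 and Phf2 5 were the lowest. The log2 fold change was -0.93 (SE 0.14, adjusted p = 0.001), a level 1.91-fold lower. Its promoter above holds an E2F motif, a CCAAT box and a CHR. In the 300 bases taken for E2f1 none of these spellings was found, and other starts or spellings were not searched.

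Genes that license and unwind DNA differed in their calls, where 5.43% of all genes were called higher and 4.24% lower. Cdc6 and Cdt1, which load the MCM helicase on origins, had log2 fold changes of 0.02 each (adjusted p = 0.965 and 0.908, intervals -0.30 to 0.33 and -0.12 to 0.15). Of the 6 subunits of the helicase ring, Mcm3 (0.35, SE 0.08, adjusted p = 0.0186) and Mcm6 (0.63, SE 0.17, adjusted p = 0.0371) were called higher. The other 4 had 0.25 (Mcm2), 0.14 (Mcm4), 0.02 (Mcm5) and 0.14 (Mcm7), with adjusted p from 0.138 to 0.932. Mcm6 ran from 5.61 to 5.96 in GFP 1 to 4 but stood at 6.68 in GFP 5, within the 6.34 to 6.81 of the Phf2 mice. The mean over the 6 subunits exceeded the GFP mean by 0.21, 0.32, 0.32, 0.37 and 0.05 in Phf2 1 to 5, and by 0.18 in GFP 5.

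Mcm10, which helps activate the loaded helicase, fell. It read 7.01, 6.44, 6.24, 6.68 and 6.52 in GFP 1 to 5 and 6.09, 5.73, 5.85, 5.86 and 6.03 in Phf2 1 to 5. The groups did not overlap, and the gap between Phf2 1 and GFP 3 was the narrowest. The log2 fold change was -0.66 (SE 0.13, adjusted p = 0.00532). Mcm10 has 3 CCAAT boxes and no match to the E2F motif or the CHR in its promoter.

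Both subunits of ribonucleotide reductase, the enzyme that makes the building blocks of DNA, rose. Rrm2, the subunit whose level limits the enzyme in cycling cells, read 5.78, 5.32, 5.35, 5.38 and 5.79 in GFP 1 to 5 and 6.59, 7.22, 7.30, 7.22 and 6.47 in Phf2 1 to 5. All Phf2 arrays were above all GFP arrays, with Phf2 2, 3 and 4 highest. This was the largest log2 fold change of the 39 members, at 1.43 (SE 0.17, adjusted p = 0.000287, 2.70-fold). Rrm1, the other subunit, read 6.13, 6.17, 6.41, 6.07 and 6.64 in GFP 1 to 5 and 7.26, 6.96, 6.97, 6.93 and 6.74 in Phf2 1 to 5. Here Phf2 1 was the highest, and the groups again did not overlap (0.69, SE 0.12, adjusted p = 0.00327).

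Other enzymes of nucleotide synthesis were not called. Tyms, which makes thymidylate, had a log2 fold change of 0.21 (adjusted p = 0.294), and Tk1, the thymidine kinase of S phase, had -0.15 (adjusted p = 0.36). A further feature for Tk1 read 6.92 to 7.44 in GFP and 6.21 to 6.87 in Phf2 mice without overlap (-0.60, two-sided exact permutation p = 0.00794, the smallest that 5 against 5 allows), so that the features of this gene disagree in size. Pcna, the sliding clamp of the DNA polymerases, read 9.67 to 9.88 in GFP mice, 10.03 to 10.10 in Phf2 1 to 4 and 9.85 in Phf2 5 (0.24, SE 0.07, adjusted p = 0.047). Its further feature had 0.25 (exact permutation p = 0.0238).

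**Figure D3:**
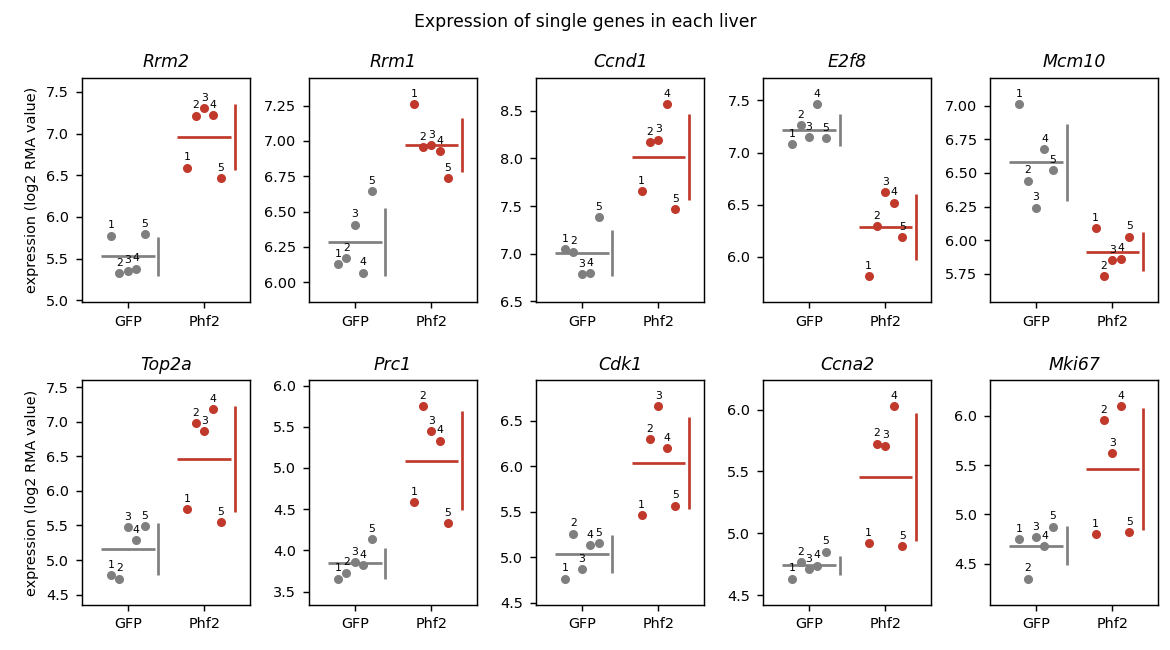
Expression (log2 RMA value) of 10 members in each liver, with grey points for GFP and red points for Phf2, numbered by replicate, and a horizontal line at the mean and a vertical bar of 1 SD on either side (n = 5). The upper row shows G1/S genes, of which E2f8 and Mcm10 are lower in all 5 Phf2 livers, and the lower row shows G2/M genes, where Phf2 2, 3 and 4 lie above Phf2 1 and 5.

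The G2/M genes were highest in the same 3 of the 5 Phf2 livers. In all 20 measured genes Phf2 2, 3 and 4 were the 3 highest of the 10 arrays, a pattern met in 5.99% of all genes and in 5 of the 19 G1/S genes. Phf2 1 was above all GFP arrays in 13 G2/M genes and within their range in 7. Phf2 5 was above them in 5, within in 12 and below in 3. Averaged over the 20 genes, the distance from the GFP mean was 0.22, 0.92, 0.88, 0.89 and 0.09 in Phf2 1 to 5, while the GFP arrays ran from -0.07 to 0.08. For the G1/S genes it was 0.15, 0.24, 0.26, 0.27 and 0.02, with GFP arrays from -0.06 to 0.13. The median SD over the G2/M genes was 0.12 in GFP and 0.49 in Phf2 mice. In 11 of 20 the SD of the Phf2 mice was over 3 times that of the GFP mice, which occurred in 2 of the 19 G1/S genes and in 3.15% of all genes. It was above that of the GFP mice in 19 of the 20, against 39.7% of all genes. The Phf2 arrays with high values were found from these same values, so that no test was run on them. Each of the 20 genes is a separate feature, but they share the 10 livers and are not 20 independent observations.

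**Figure D4:**
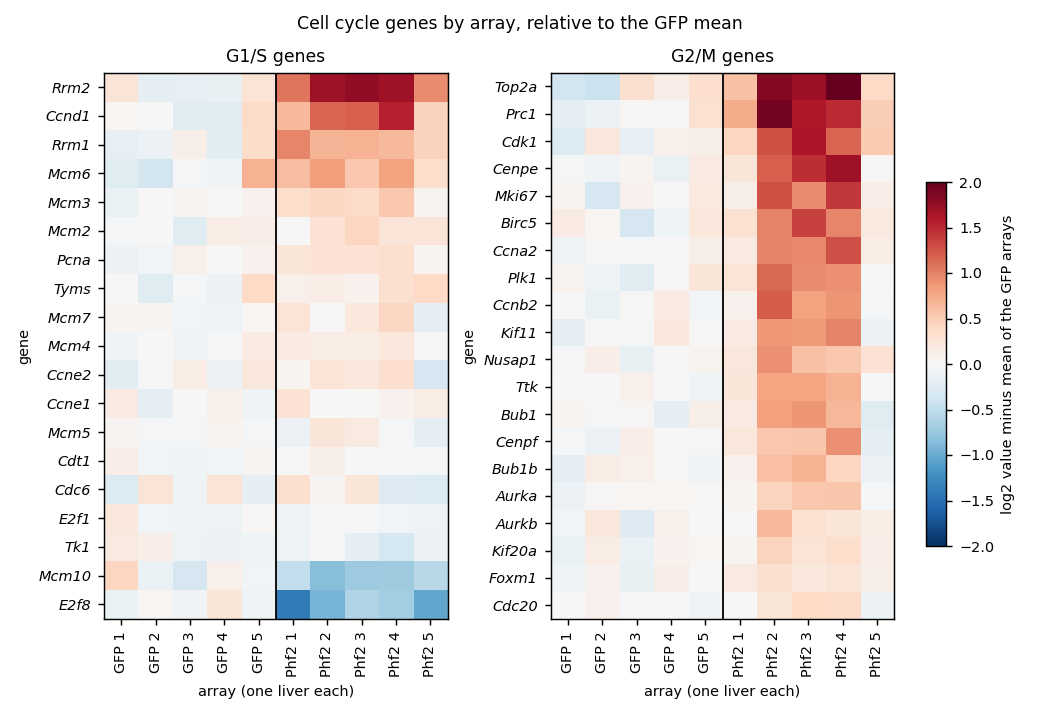
Log2 value of each member in each liver minus the mean of the GFP livers, with red for higher and blue for lower, for 19 G1/S genes (left) and 20 G2/M genes (right), ordered by fold change. In the G2/M genes the columns of Phf2 2, 3 and 4 stand out (mean difference 0.92, 0.88 and 0.89), while Phf2 1 and Phf2 5 are at 0.22 and 0.09.

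Among the regulators, Cdk1, the kinase that drives mitosis, read 4.76, 5.26, 4.87, 5.13 and 5.15 in GFP 1 to 5 and 5.47, 6.30, 6.66, 6.20 and 5.57 in Phf2 1 to 5. No Phf2 array overlapped with the GFP arrays, and the log2 fold change was 1.00 (SE 0.20, adjusted p = 0.00801). Its cyclin partner Ccna2, which acts in S phase and G2, read 4.63, 4.77, 4.71, 4.74 and 4.85 in GFP 1 to 5 and 4.92, 5.72, 5.71, 6.03 and 4.89 in Phf2 1 to 5. Phf2 1 and Phf2 5 were thus just above the highest GFP array (0.72, SE 0.19, adjusted p = 0.0365). Ccnb2, a mitotic cyclin, lay at 5.66 to 5.97 in GFP mice, at 6.61 to 7.01 in Phf2 2 to 4, and at 5.88 and 5.77 in Phf2 1 and 5, so that it did not pass (0.59, adjusted p = 0.0973). Plk1, a kinase of mitotic entry, had 0.66 (SE 0.20, adjusted p = 0.056). Aurka and Aurkb, the Aurora kinases of the centrosome and the centromere, had 0.31 and 0.27 (adjusted p = 0.125 and 0.21). Foxm1, the activator of many of these genes, had 0.22 (SE 0.07, adjusted p = 0.0692) and was the only one of the 20 whose SD was lower in Phf2 than in GFP mice (0.08 and 0.11).

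Top2a, the topoisomerase that untangles DNA before division, had the largest change of the G2/M genes. It read 4.78, 4.73, 5.48, 5.29 and 5.49 in GFP 1 to 5 and 5.73, 6.99, 6.86, 7.18 and 5.55 in Phf2 1 to 5. The groups did not overlap, but Phf2 5 exceeded GFP 5 by little (1.31, SE 0.31, adjusted p = 0.0186). A further feature annotated to Top2a lay near 3.1 on all arrays, with a difference of 0.06 (exact permutation p = 0.429). Mki67, the gene of the proliferation marker Ki-67, read 4.75, 4.35, 4.77, 4.68 and 4.88 in GFP 1 to 5 and 4.80, 5.96, 5.62, 6.10 and 4.82 in Phf2 1 to 5. With Phf2 1 and 5 inside the GFP range it did not pass with all arrays (0.77, SE 0.24, adjusted p = 0.0629), and it passed without Phf2 1 or without Phf2 5 (adjusted p = 0.0204 and 0.0195).

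Of the genes of the spindle and of cell division, Prc1, Nusap1, Birc5 and Ttk were called higher. Prc1, which bundles the microtubules of the central spindle, read 3.66, 3.73, 3.86, 3.82 and 4.14 in GFP 1 to 5 and 4.59, 5.75, 5.45, 5.33 and 4.33 in Phf2 1 to 5. All Phf2 arrays were higher (1.25, SE 0.23, adjusted p = 0.00485). Nusap1, a microtubule binding protein of the spindle, did not overlap either (3.96 to 4.24 in GFP and 4.33 to 5.02 in Phf2 mice), with a difference of 0.51 (SE 0.12, adjusted p = 0.0151). Birc5, the survivin of the chromosomal passenger complex, had 0.77 (SE 0.20, adjusted p = 0.0317), although Phf2 5 at 5.75 lay within the GFP range of 5.21 to 5.77.

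The motor proteins Cenpe, Kif11 and Kif20a had log2 fold changes of 0.93, 0.55 and 0.25 and did not pass (adjusted p = 0.0557, 0.102 and 0.1). Cenpe read 3.75 to 4.06 in GFP mice, 5.09, 5.36 and 5.58 in Phf2 2, 3 and 4, and 4.13 and 3.91 in Phf2 1 and 5. Of the checkpoint genes, which delay the separation of chromosomes until all are attached, Ttk was called higher (0.50, SE 0.14, adjusted p = 0.0442). Bub1 and Bub1b had 0.46 and 0.34 (adjusted p = 0.16 and 0.172), and Cdc20, the activator of the ligase that ends mitosis, had 0.18 (adjusted p = 0.308). Cenpf, of the kinetochore, had 0.41 (adjusted p = 0.143). Ttk, Cdc20, Bub1 and Bub1b share the pairing of CHR and CCAAT box in their promoters, of which only Ttk was called.

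Of the G2/M genes, 15 of 20 had a mean level below the median of all genes, against 8 of the 19 G1/S genes, so that the mitotic changes start from weak signals. Groups did not overlap in 5 G2/M genes (all higher) and in 5 G1/S genes (3 higher and 2 lower), while this held for 9.08% of all genes, 4.71% upwards and 4.36% downwards.

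Other genes of the cycle were taken from lists that hold no member, which were also chosen with earlier results of these data known. Against 5.43% of all genes higher and 4.24% lower, of 71 other mitosis genes 15 were higher, 0 lower and 56 not called, with a median log2 fold change of 0.22, and Phf2 2, 3 and 4 were the 3 highest arrays in 35 of them (6 of the 50 other replication genes). The largest rises were in Ckap2, a spindle protein (1.74, SE 0.26, adjusted p = 0.00133), Mad2l1, of the spindle checkpoint (1.28, SE 0.18, adjusted p = 0.000655), and Spc25, of the kinetochore (0.96, SE 0.12, adjusted p = 0.000359). Mad2l1 read 6.00 to 6.64 in GFP mice and 7.28, 7.75, 8.01, 7.85 and 7.16 in Phf2 1 to 5. Of 50 other replication genes 5 were higher, 0 lower and 45 not called, with a median of 0.06, where 5.43% of all genes were higher. They included Dnmt1, which copies DNA methylation (0.45, SE 0.08), Chaf1a, which places histones on new DNA (0.43, SE 0.10), and Gins2, of the replicative helicase (0.40, SE 0.11). Dnmt1 passed under 20 of 22 alternative settings, Chaf1a under 18 of 21 and Gins2 under 9 of 22.

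Upstream of the members, 0 of 21 other G1 entry genes were higher and 2 lower at this threshold, Tfdp2, a partner of E2F factors (-0.33, SE 0.09), and the repressor E2f5 (-0.26, SE 0.07). Tfdp2 passed under 11 of 22 alternative settings and E2f5 under 13 of 21. At an unadjusted p under 0.05 from limma, 5 of the 21 passed in either direction and 2 were higher. Of all genes, 11.8% were higher at this level. Among 23 inhibitors of the cycle 4 were higher and 2 lower (5.43% and 4.24% of all genes), with a median of 0.09. Btg2, an antiproliferative gene, read 6.71, 7.02, 6.97, 6.98 and 7.03 in GFP 1 to 5 and 8.47, 7.75, 7.88, 7.98 and 8.44 in Phf2 1 to 5 (1.16, SE 0.14, adjusted p = 0.000232). Its order within the Phf2 mice was the opposite of that of the G2/M genes, since Phf2 1 and 5 were the highest. Gadd45a, of the response to DNA damage, had 1.11 (SE 0.18) and Wee1, the kinase that holds back Cdk1, had 0.67 (SE 0.16). Gadd45a passed under 22 of 22 alternative settings and Wee1 under 13 of 22. Rbbp4 and Rbl2, of the complex that silences cycle genes in resting cells, had -0.42 and -0.38 (adjusted p = 0.000927 and 0.0138). The p53 targets, of which 14 of 26 were higher and 0 lower (5.43% and 4.24% of all genes), had a similar mean difference from GFP in all Phf2 mice (0.50, 0.42, 0.66, 0.55 and 0.45 in Phf2 1 to 5), and Phf2 2, 3 and 4 were the highest arrays in 3 of them. Ckap2 counts in this list as well as in that of mitosis.

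**Figure D5:**
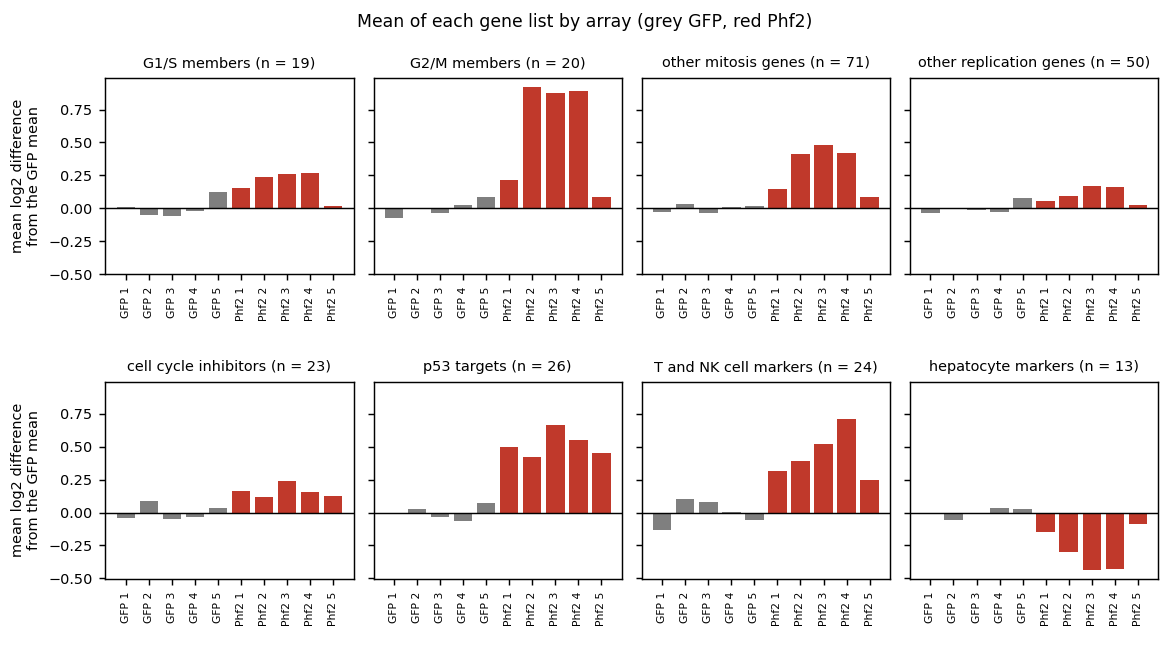
Mean difference from the GFP mean (log2) in each liver for 8 gene lists, with grey bars for GFP and red bars for Phf2. The G2/M members reach 0.92, 0.88 and 0.89 in Phf2 2, 3 and 4 and 0.22 and 0.09 in Phf2 1 and 5, while the p53 targets lie between 0.42 and 0.66 in all 5 Phf2 livers.

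Markers of the cell types that liver can hold were read in the same arrays. The 24 T and NK cell markers, of which 8 were higher and 0 lower (5.43% and 4.24% of all genes), were above the GFP mean by 0.31, 0.39, 0.52, 0.71 and 0.24 in Phf2 1 to 5, with GFP arrays from -0.13 to 0.10. Their median log2 fold change was 0.18, and 16 were not called. Of the 3 with the highest level, Ccl5, a chemokine of these cells, had a log2 fold change of 1.94 (SE 0.25, adjusted p = 0.000392). Cd3e, of the T cell receptor complex, had 0.64 (SE 0.10, adjusted p = 0.00161), and Thy1 had 0.48 (SE 0.17, adjusted p = 0.121) and did not pass. The 13 hepatocyte markers, of which 0 were higher and 6 lower, stood at -0.15, -0.30, -0.43, -0.43 and -0.09. The 10 stellate cell markers, of which 2 were higher and 0 lower, stood at 0.10, 0.38, 0.50, 0.27 and 0.10. The 11 B and plasma cell markers, of which 0 were higher and 1 lower, stood at -0.09, 0.22, 0.07, 0.43 and 0.04. The means of the T and NK cell, stellate, and B and plasma cell lists were higher in Phf2 2, 3 and 4 than in Phf2 1 and 5, and that of the hepatocyte list was lower. The 15 macrophage and Kupffer markers, of which 4 were higher and 4 lower, stood at -0.22, -0.07, 0.06, 0.03 and -0.26, with Phf2 2, 3 and 4 again above Phf2 1 and 5 but all within the GFP arrays (-0.23 to 0.38) apart from Phf2 5. The 6 bile duct markers (-0.03, 0.22, 0.09, 0.09 and -0.08, with 0 called by limma and 1 at an unadjusted p under 0.05) had this order too. All these values lay within the GFP arrays (-0.28 to 0.53). The 10 endothelial markers, of which 1 was higher and 0 lower, stood at 0.01, 0.02, 0.14, 0.02 and -0.08, and the 7 erythroid markers, of which 1 was higher and 1 lower, at 0.04, -0.15, -0.03, -0.17 and 0.0036. The endothelial list also had this order, but Phf2 1 (0.0138) was just under Phf2 4 (0.0163). The part of these cells in the cell cycle values was not tested.

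The 13 pancreatic genes, of which limma called 0 (also 0 at an unadjusted p under 0.05), had a mean level of 5.69, 10.42, 9.72, 8.38 and 5.87 in Phf2 1 to 5, so that the 3 Phf2 arrays with the highest G2/M values also had more pancreatic signal than Phf2 1 and 5. In GFP 1 to 5 it was 12.07, 8.06, 6.68, 5.86 and 7.45, and GFP 1, the highest of all, had a G2/M mean difference of -0.07. With their mean as a covariate, 15 members were higher, 12 of them among the 13, and so were 1118 of all genes. Without GFP 1, Phf2 2 and Phf2 3, a fit that was added after the values were seen, only Rrm2 remained higher (1.30, adjusted p = 0.00408) and only E2f8 lower (-1.08, adjusted p = 0.00468), and the median of the G2/M genes was 0.31. This fit, with 4 GFP and 3 Phf2 arrays, called 365 of all genes higher and 230 lower, against 1083 and 846 with all arrays. It leaves out 2 of the 3 Phf2 arrays with the highest G2/M values, and the reason for the lost calls was not tested. In that fit Prc1, Rrm1 and Cdk1 had log2 fold changes of 0.86, 0.65 and 0.64 (adjusted p = 0.0568, 0.0605 and 0.0825).

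Over all genes that are no member, those whose values were most like the G2/M mean, by Pearson correlation over the 10 arrays after the mean of each group was removed, were Nuf2 (0.98), Pbk (0.98), Anxa4 (0.97), Egr2 (0.97) and Ect2 (0.97). Nuf2, of the kinetochore, read 3.93 to 4.25 in GFP mice, 5.09, 5.11 and 5.17 in Phf2 2, 3 and 4, and 4.32 and 4.00 in Phf2 1 and 5. Egr2, a transcription factor of early response, read 5.14 to 5.58 in GFP mice and 6.04, 6.88, 7.01, 7.04 and 5.91 in Phf2 1 to 5. These points share 10 arrays, and after the group means are removed most of their spread is that of Phf2 2, 3 and 4 against Phf2 1 and 5.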

How the data were processed

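Liver RNA was profiled on 10 Affymetrix Gene ST arrays, 1 per mouse, and samples were grouped by the GFP or Phf2 in their labels. The authors deposited RMA values on the log2 scale, 35556 features per array. RMA and Partek are the tools in the submitters' processing notes, which give no versions. RMA draws weak signals together and can compress fold changes of weakly expressed genes such as those of mitosis. The methods name a human array and an RNA kit other than that of the labels, whereas the probe annotation is that of a mouse array. All columns of the table were used.

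Gene names came from the platform annotation. Of 21789 features with 1 symbol, 21698 matched the GRCm38.p6 gene table, and those with several symbols (1621) or without one (12146) were dropped. A gene with several features (999 genes) was read through the one with the highest mean, for 19938 genes in total. The 5 Phf2 and 5 GFP arrays were fitted by lmFit and eBayes of limma 3.58.1 (R 4.3.3) without covariates, and p-values were adjusted by Benjamini-Hochberg across the 19938 genes. Exact permutation tests are two-sided. Log2 fold changes are Phf2 minus GFP means. The fit was tested on simulated data of 19938 genes, laid out as Phf2 against GFP arrays. It called 43 of 50 genes changed 1.5-fold and 50 of 50 changed 2-fold, with 17 false calls among 210. Whether these rates hold for the measured livers was not tested. In the livers 1929 genes were called, and the median SD over the G2/M genes was 0.12 in GFP and 0.49 in Phf2 mice.

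The members and lists were chosen with earlier results of these data known. All members may be named, with up to 3 called genes per direction of each other cycle list and of the p53 targets, up to 3 markers of the highest level per cell type, the 5 genes most like the G2/M mean, and Phf2. Alternatives were the methods' t-test, a trend with a robust prior, array weights, the replicate number as a block, the pancreatic mean as a covariate, a filter on dim features, median centring, quantile normalization, all features, the study's thresholds, averaging of features per gene, the classes without genes of several phases, and leaving out each array. The number of arrays limits the precision.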

Additional observations from a re-analysis of the deposited data

Results flagged for a closer look

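Among 126 groups of 5 arrays (both groups of each member and other named gene), 5 held an array whose gap to the nearest of the others exceeded the 95% limit of Dixon's test, where chance gives about 1 in 20. Of the members, 4 of 78 groups did so. Cdt1 read 5.15 in Phf2 2 against 5.01 to 5.04 in the other Phf2 arrays. Mcm4 read 5.62 in GFP 5 against 5.40 to 5.46 in the other GFP arrays. Pcna read 9.85 in Phf2 5 against 10.03 to 10.10 in the other Phf2 arrays. Aurka read 5.93 in GFP 1 against 6.08 to 6.09 in the other GFP arrays. Btg2, which is no member, read 6.71 in GFP 1 against 6.97 to 7.03.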

How the results depend on the processing

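Of the 15 called members, only E2f8 and Rrm2 stayed past the threshold under all 22 alternatives, and 13 lost it under at least 1, while 13 other members passed under at least 1. The 2 lower members stayed at 2 except with the mean of a gene's features (3) and without the 3 arrays with the most pancreatic signal (1). Higher members, 13 in all, were 5 by the methods' t-test, 8 without dim features (16 members tested), 8 over all features and 1 without the 3 arrays, and ran from 6 to 22 on leaving out 1 array. Genes higher (1083) became 694 by the methods' t-test, 365 without the 3 arrays and 475 at the study's thresholds, and genes lower (846) became 1280 with median centring, 230 without the 3 arrays and 231 at the study's thresholds. On leaving out 1 array, genes higher ran from 727 to 1220 and genes lower from 571 to 912. The G1/S median was 0.24 without dim features, 0.09 with median centring or quantile normalization, 0.16 without the 3 arrays, and 0.11 to 0.17 on leaving out 1 array. The G2/M median was 0.77 without dim features, 0.48 with median centring, 0.52 with quantile normalization and 0.31 without the 3 arrays. It ran from 0.43 to 0.68 on leaving out 1 array. The cause of these shifts was not tested, and some of these fits also held fewer arrays or genes.

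Log2 fold changes near 0 changed sign. Under median centring, which lowers the median of all genes by 0.05, Cdc6 stood at -0.0300, Cdt1 at -0.0293 and Mcm5 at -0.0285. With quantile normalization Cdt1 stood at -0.00528 and Mcm5 at -0.0170. Without the 3 arrays Ccne2 stood at -0.0374, Cdc6 at -0.140 and Mcm5 at -0.0946. On leaving out 1 array in turn the values ran from -0.0589 to 0.0905 for Cdc6, from -0.0067 to 0.0512 for Cdt1 and from -0.0369 to 0.0683 for Mcm5.

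The deviations of same-numbered arrays from their group means correlated at -0.29 to -0.04, so that no pairing by the replicate numbers of the labels was seen. Correlations of so few arrays cannot exclude a pairing. With the replicate number as a block 9 members were higher and 2 lower, and 855 genes were higher and 659 lower.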
